A study of Mus musculus with 32 samples.

Results

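The 9 genes Musk, Rapsn, Dok7, Lrp4, Agrn, Colq, Ache, Etv5 and Ncam1, which take part in building or maintaining the neuromuscular junction, were followed through denervation of the mouse gastrocnemius (GAS) muscle. They were listed by name for that role, with earlier results of these data known, and all 9 were found among the 33397 genes of the deposited table. RNA-seq was available for 32 GAS samples at 8 time points, Day0, Day1, Day3, Day5, Day7, Day14, Day21 and Day28, with 4 samples at each. The labels give C57BL/6 mice and sciatic nerve transection for all 32 samples, Day0 included, whereas the study's methods describe male mice with a section of the left sciatic nerve removed and a sham group. The 4 table columns not named for a day were taken as Day0, and the letters a to d of the other columns are tied to no individual mouse. The labels give no age, and their RNA protocol speaks of retinas. Summed over 6 retina markers, FPKM (fragments scaled to gene length and sequencing depth) was at most 0.165 on average at any time point, against 24943 to 43713 for 7 muscle fibre markers, as the labelled tissue gives. Recovered depth ranged from 14189241 to 17546714 fragments per sample. Sample a of Day3 stood apart from its group, with a lowest correlation of 0.963 across genes with another Day3 sample.

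At the neuromuscular junction, the motor nerve terminal releases agrin into the cleft. Agrin binds Lrp4 on the muscle membrane, which activates the receptor tyrosine kinase MuSK. The adaptor Dok7 sustains that activity, and rapsyn anchors the clustered acetylcholine receptors. The receptor signal is ended by acetylcholinesterase, the Ache product, which the collagen tail ColQ fixes to the synaptic basal lamina. In an innervated fibre most of these genes are transcribed mainly by the nuclei beneath the synapse. Loss of the nerve is known to let some of them be transcribed along the whole fibre.

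Upstream sequence from RefSeq (GRCm38.p6) was matched for 5 of the 9 genes, Musk, Dok7, Agrn, Ache and Etv5, and was not found in the table used for Rapsn, Lrp4, Colq and Ncam1. Below, to show the letters searched, are the stretches just before the first start site of Musk, Dok7 and Agrn, the genes of the kinase, its adaptor and the ligand. Capitals mark the E-box CANNTG, the motif read by the myogenic factors, searched on both strands.
Musk, chr4:58285712-58285959, plus strand: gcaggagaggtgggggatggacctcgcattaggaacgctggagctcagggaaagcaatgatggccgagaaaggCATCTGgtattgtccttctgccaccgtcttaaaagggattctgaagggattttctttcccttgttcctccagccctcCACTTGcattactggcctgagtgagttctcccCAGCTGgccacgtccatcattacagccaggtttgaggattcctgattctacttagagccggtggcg
Dok7, chr5:35056516-35056765, plus strand: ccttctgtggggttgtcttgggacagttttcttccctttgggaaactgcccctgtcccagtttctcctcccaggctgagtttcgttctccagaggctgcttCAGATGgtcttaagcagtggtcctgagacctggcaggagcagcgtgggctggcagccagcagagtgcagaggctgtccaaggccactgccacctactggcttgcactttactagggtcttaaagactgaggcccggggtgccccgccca
Agrn, chr4:156197489-156197738, minus strand: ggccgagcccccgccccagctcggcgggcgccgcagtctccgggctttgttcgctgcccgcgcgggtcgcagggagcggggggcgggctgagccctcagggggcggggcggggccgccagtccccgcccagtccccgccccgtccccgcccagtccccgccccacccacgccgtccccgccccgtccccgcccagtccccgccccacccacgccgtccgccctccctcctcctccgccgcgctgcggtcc
The Musk stretch held 3 E-boxes, whose first bases lie at -177 (CATCTG), at -100 (CACTTG) and at -68 (CAGCTG) from the start site. The printed Musk letters end 2 bases before that site, where the GENCODE gene begins. The Dok7 stretch held 1, CAGATG at -149, and the Agrn stretch held 0. At their second start sites Dok7 held 0 and Agrn 1, at -92. Etv5 held 2 at its first start site, and Ache, which fell, held 1. Of 32851 mouse promoters searched over the same 250 bases, 66.2% held an E-box and 13.0% held CAGCTG, which is one form of CANNTG. The N-box CCGGAA, a motif for ETS factors, was in 12.0% of promoters and in none of the 8 start sites of the 5 matched genes. A match describes the letters and shows no binding.

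Each day was compared with Day0 by limma on log2(FPKM + 1) over all 32 samples. A gene was called when its adjusted p was under 0.05 and its change at least 1.5-fold on that scale, which understates changes of low genes. At Day1, 1 of the 9 genes was called higher (Musk) and 2 lower (Ache and Colq), against 6.34% and 2.49% of all 22071 genes tested. At Day3, 3 were called higher (Dok7, Musk and Ncam1) and 2 lower, where 13.2% and 6.03% of all genes were. At Day5, Lrp4, Musk and Ncam1 were higher and Ache and Colq lower, with backgrounds of 14.9% and 3.86%. At Day7, 4 were higher (Dok7, Lrp4, Musk and Ncam1) and the same pair lower, with backgrounds of 15.4% and 4.1%. Lrp4, Musk and Ncam1 were higher and Ache and Colq lower at each later day as well. The backgrounds were 14.6% and 3.83% at Day14, 11.8% and 3.93% at Day21, and 14.2% and 4.1% at Day28. The 9 genes thus split into a group that rose, a pair that fell, and Agrn, Rapsn and Etv5, which were called at no time point against Day0 with the values as deposited.

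**Figure D1:**
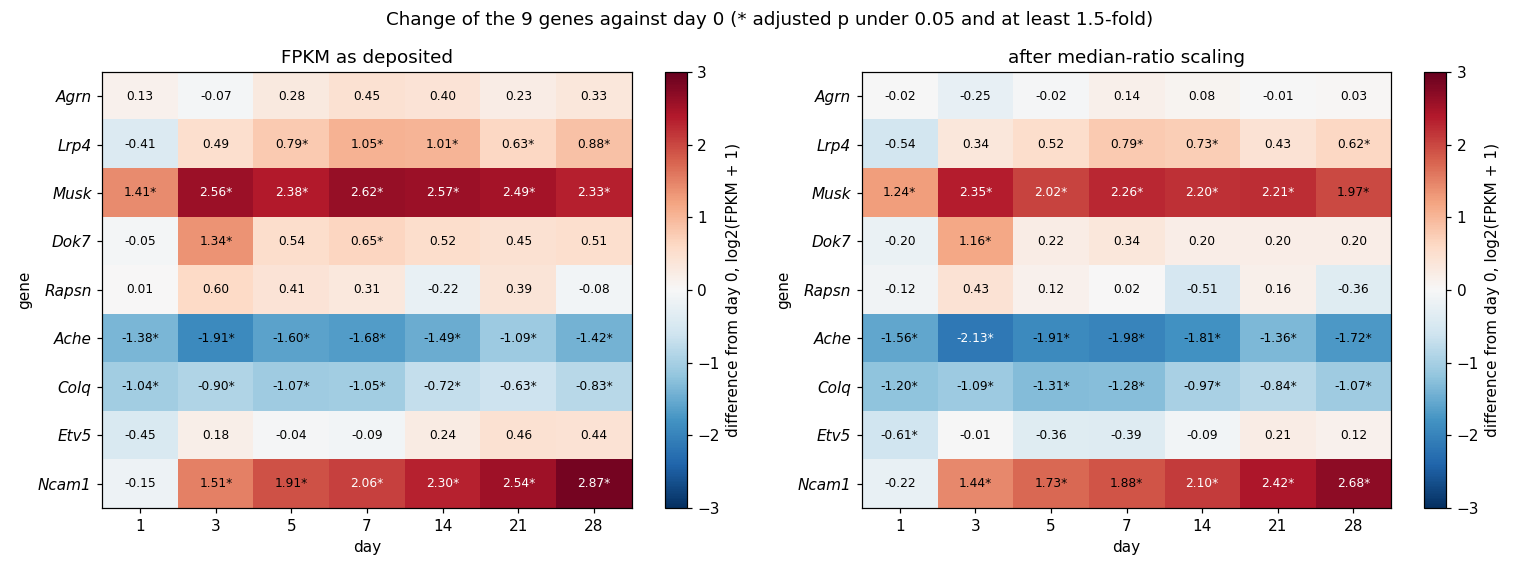
Change of each gene (rows) against Day0 at each later day (columns) as the difference in log2(FPKM + 1), red for higher and blue for lower, from the FPKM as deposited (left) and after median-ratio scaling (right); an asterisk marks an adjusted p under 0.05 with at least a 1.5-fold change. Musk is higher and Ache and Colq are lower at all 7 days in both panels, while the smaller changes of Lrp4 and Dok7 lose calls on the right.

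The scale of the samples bears on every value below. Across the 11943 genes whose mean FPKM reached 1, the median log2 difference from Day0 was 0.12 at Day1, 0.20 at Day3 and between 0.24 and 0.32 afterwards. Median-ratio scaling, which sets the typical gene level, brought it to between -0.02 and 0.03. Of all genes called at Day28, 77.6% were higher as deposited and 44.8% after that scaling. Mitochondrial genes took 14.5 to 18.2% of fragments at Day0 and 6.70 to 11.3% at Day7, and scaling to the total without them took the median from 0.32 to 0.21 at Day7 and from 0.30 to 0.22 at Day28. The share of calls that were higher at Day28 was then 69.3%. Rescaling to TPM instead raised the median, to 0.24 at Day1 and 0.56 at Day14. Changes of call or direction of the 9 genes under median-ratio scaling are given beside each gene. Statements that samples lay above or below those of Day0 use FPKM as deposited, and the share of all genes that did so is not given.

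Agrn, the gene of the ligand, was called at no day with the values as deposited. Its 4 Day0 samples had 2.77, 3.49, 3.57 and 3.22 FPKM, and its day means ran from 3.05 ± 0.242 (SD, n = 4) at Day3 to 4.88 ± 1.08 at Day7. No pair of neighbouring days in the order of its levels was called. The largest difference from Day0 was 0.45 ± 0.11 (SE, log2) at Day7, with a limma adjusted p of 0.000774 and a size under 1.5-fold. After median-ratio scaling that difference was 0.14, and those at Day1, Day5 and Day21 changed sign to -0.02, -0.02 and -0.01. After rescaling to TPM the differences at Day7 (0.69) and Day14 (0.65) were called higher. In FPKM as deposited, all 4 samples lay above every Day0 sample at Day5, Day14, Day21 and Day28. After median-ratio scaling the differences at Day14 and Day28 were 0.08 and 0.03, and neither was called. These libraries read all cells of the muscle. The agrin that motor neurons make is produced in cell bodies outside it.

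Lrp4, the agrin receptor, had its lowest values at Day1, not called, and was called higher from Day5. The Day0 values were 1.51, 1.8, 2.02 and 1.46 FPKM. At Day1 they had 0.912, 0.984, 1.02 and 1.19, all below the lowest Day0 sample. The Day1 difference of -0.41 ± 0.11 missed 1.5-fold, although limma-voom on the recovered fragments gave -0.71 and a call. At Day3 sample a had 1.95 FPKM, within the Day0 range, and the other 3 had 3, 3.08 and 3.24, above it. The Day3 difference was 0.49 and was not called, but without sample a it was 0.61 with a limma adjusted p of 8.05e-06, which was called. With sample a it was also called with a pseudocount of 0.1 (0.69), TPM (0.75) and limma-voom (0.72). The highest level was at Day7, with 4.8, 5.09, 3.35 and 5.26 FPKM and a mean 2.72-fold that of Day0. There the difference was 1.05 ± 0.11 (adjusted p = 2.58e-09), or 0.79 and still called after median-ratio scaling. At Day28 the samples had 4.12, 4.07, 3.63 and 3.99 FPKM, again all above Day0, with a difference of 0.88. The calls at Day5 (0.79) and Day21 (0.63) were lost after median-ratio scaling, at 0.52 and 0.43, and that at Day21 was also lost without Day0 sample 4, at 0.58.

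Musk, the receptor kinase, had the highest FPKM of the 9 genes at every time point and rose first. The samples of Day0 had 8.34, 7.84, 12 and 10.8 FPKM, and its Day1 samples 24.4, 23.8, 32.3 and 29.1. Each Day1 sample thus lay well above each Day0 sample, and the mean was 2.81-fold higher. At Day3 it had 71.9, 56.6, 58.7 and 60.7 FPKM, a mean 6.36-fold that of Day0. The differences from Day0 were 1.41 ± 0.11 at Day1 (adjusted p = 6.79e-11) and 2.56 ± 0.11 at Day3 (adjusted p = 5.34e-17). From there the level stayed in a band, with means between 52.3 ± 2.6 at Day28 and 64.3 ± 6.97 at Day7. In the order of its levels, Day28 differed from Day1 and Day1 from Day0, whereas no other neighbours were called. After median-ratio scaling its differences lay between 1.24 and 2.35 and all 7 were called.

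Dok7, the MuSK adaptor, had a peak at Day3. At Day0 the samples had 3.35, 3.76, 3.92 and 3.3 FPKM, and at Day1 3.62, 2.9, 3.38 and 3.84, which overlapped them. At Day3 they had 9.56, 13.2, 9.14 and 11, and no other sample of the series reached the lowest of these. The Day3 difference from Day0 was 1.34 ± 0.11 (adjusted p = 2.22e-11). By Day5 the samples had 5.27, 6.3, 5.06 and 5.98 FPKM, which was lower than at Day3 by a called difference of -0.81 ± 0.11 (adjusted p = 1.82e-06) and above every Day0 sample. Later means lay between 5.27 ± 0.622 and 6.19 ± 0.668. The only later call against Day0 was at Day7, at 0.65, and median-ratio scaling took it to 0.34 and ended it. The Day3 call held under that scaling, at 1.16. Differences at Day14 (0.52) and Day28 (0.51) were under 1.5-fold, but each was called without sample c of its day, at 0.59 and 0.60. Day5, Day14 and Day28 were also called with limma-voom (0.65, 0.64 and 0.63) and with a pseudocount of 0.1, and all days from Day5 with TPM, by 0.64 to 0.91. From Day5 on every sample, as deposited, lay above every Day0 sample. After median-ratio scaling the differences at Day5, Day14, Day21 and Day28 were 0.22, 0.20, 0.20 and 0.20, and none was called.

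Rapsn, whose product clusters the acetylcholine receptors, was the most variable of the 9 genes. The 4 samples of Day0 had 3.78, 0.892, 7.31 and 3.5 FPKM, from 105, 24, 201 and 100 fragments. Day28 samples, at 3.73, 2.91, 4.2 and 1.84 FPKM, fell within that range. The SD within time points was 0.49 on the log2 scale, and 2.03% of 5223 genes of like level had a larger one. The difference from Day0 ran from -0.22 ± 0.33 at Day14 to 0.60 ± 0.33 at Day3, and none was called. The Day1 difference changed sign under median-ratio scaling, from 0.01 to -0.12. Without Day0 sample 3 the Day3 difference was 0.92 with a limma adjusted p of 0.0232, which was called. The 4 Day3 samples, from 4.6 FPKM, lay above all those of Day14 and Day28. Day14 was lower than Day3 by a difference called after median-ratio scaling (-0.94, adjusted p = 0.0315) and with limma-voom (-1.06) but not with the values as deposited (-0.82). With an SE of 0.33, changes near 1.5-fold could not be detected for this gene.

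**Figure D2:**
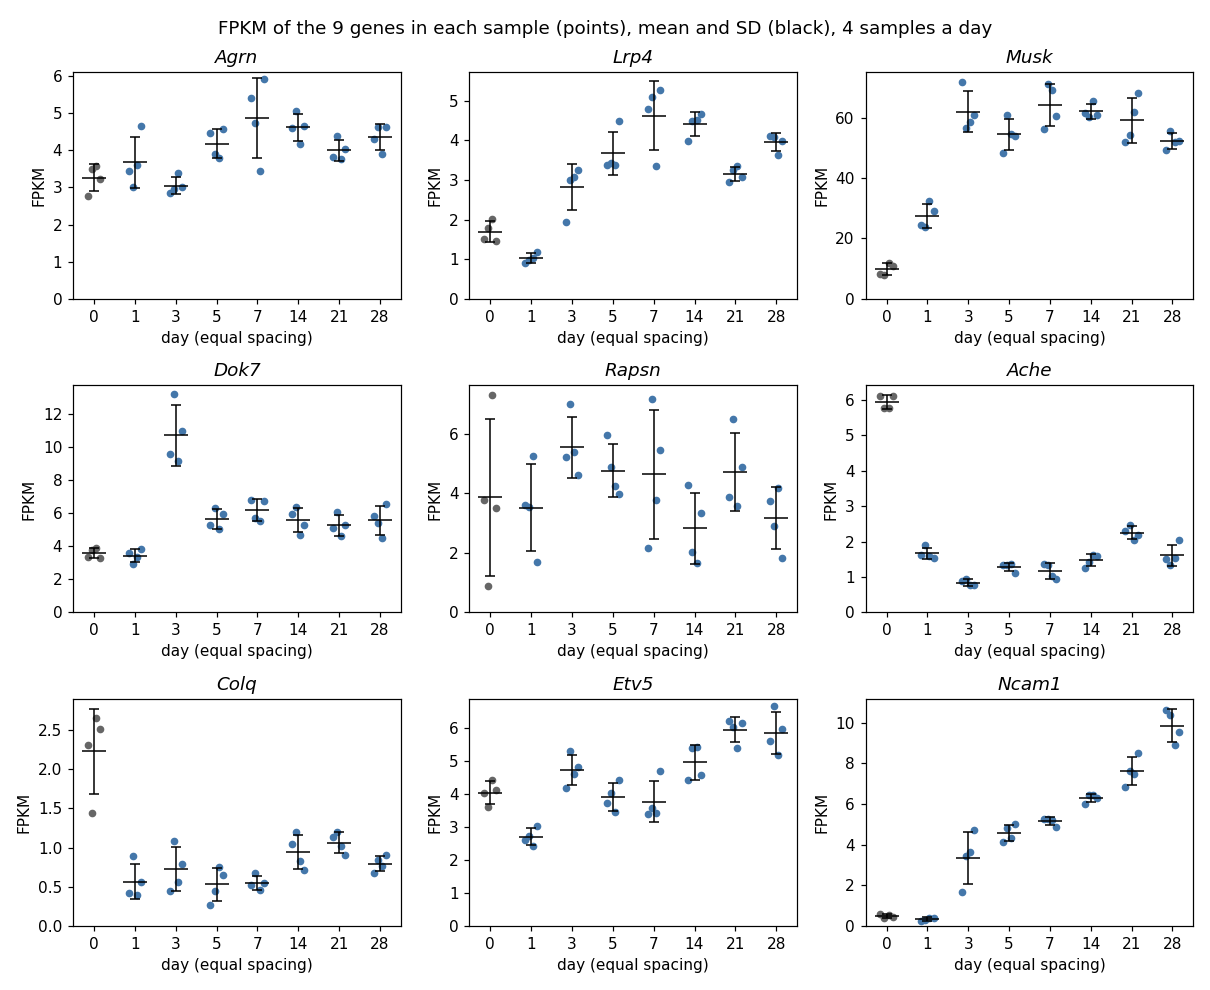
FPKM of each of the 9 genes (vertical axes, starting at 0) by day (horizontal axes, days equally spaced), with 1 point per sample, grey for Day0 and blue for later days, and black marks for the mean and SD of 4 samples. Ache drops from 5.94 to 0.843 FPKM by Day3, Dok7 has a single high day, Ncam1 climbs to 9.87 FPKM and the Rapsn samples of every later day overlap those of Day0.

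Ache, which encodes the enzyme that breaks down acetylcholine, had the tightest replicates at Day0 and fell the most. Its Day0 samples had 6.11, 5.78, 5.77 and 6.12 FPKM. At Day1 they had 1.63, 1.9, 1.6 and 1.55, and at Day3 0.89, 0.944, 0.771 and 0.769. Every later sample of the series lay below every Day0 sample. The mean was 3.56-fold lower at Day1 and 7.05-fold lower at Day3, with log2 differences of -1.38 ± 0.08 (adjusted p = 7.27e-14) and -1.91 ± 0.08 (adjusted p = 9.41e-18). The level was higher again at Day21, with 2.31, 2.46, 2.05 and 2.2 FPKM, by 0.82 ± 0.08 over Day3 (adjusted p = 1.59e-09). At Day28 it was 1.51, 1.35, 1.54 and 2.04 FPKM, still 3.69-fold below Day0 by the means. After median-ratio scaling its differences from Day0 were larger, between -1.36 and -2.13.

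Colq, the collagen tail of that enzyme, fell with it from Day1. Its Day0 samples had 2.3, 1.44, 2.65 and 2.52 FPKM, and its Day1 samples 0.426, 0.889, 0.392 and 0.557, from 23 to 52 fragments. At Day5 they had 0.266, 0.451, 0.754 and 0.646 FPKM. No later sample reached the lowest Day0 sample. The mean was 3.94-fold lower at Day1 and 4.21-fold lower at Day5, with log2 differences of -1.04 ± 0.12 (adjusted p = 1.29e-07) and -1.07 ± 0.12 (adjusted p = 3.12e-08). The smallest difference was -0.63 ± 0.12 at Day21, where the samples had 1.13, 1.2, 1.02 and 0.901 FPKM, and that call was lost without Day0 sample 3 (-0.57) or without Day0 sample 4 (-0.58). Exons of another gene, Gm49387, share 199 bases (5.23%) of the Colq exons on the same strand, so some of its fragments are uncertain. In bulk tissue, fewer cells of a type and less RNA per cell cannot be told apart for this or any other gene here.

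Etv5, an ETS transcription factor linked to synaptic gene expression, was called at no day against Day0 with the values as deposited. Its Day0 samples had 4.02, 3.61, 4.44 and 4.11 FPKM and its Day1 samples 2.61, 2.72, 2.44 and 3.04, all below them. The Day1 difference of -0.45 ± 0.09 missed 1.5-fold (adjusted p = 0.000198), but after median-ratio scaling it was -0.61 and was called lower. At Day21 the samples had 6.2, 6.03, 5.4 and 6.16 FPKM, all above Day0, with a difference of 0.46 that was 0.21 under that scaling. After rescaling to TPM, Day21 (0.65) and Day28 (0.65) were called higher. The differences at Day3 (0.18) and Day14 (0.24) changed sign after median-ratio scaling, to -0.01 and -0.09. Against Day1 it was called higher at Day3 by 0.63 ± 0.09 (adjusted p = 1.52e-06), a call lost without sample b of Day3, at 0.58. It was also called higher than at Day1 at Day14 (0.68), Day21 (0.91) and Day28 (0.89). After median-ratio scaling those at Day21 (0.82) and Day28 (0.73) were called and that at Day14 (0.52) was not.

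Ncam1, a cell adhesion molecule of muscle, nerve and Schwann cells, was called higher from Day3, with its highest level at Day28. Samples of Day0 had 0.577, 0.379, 0.56 and 0.414 FPKM and overlapped those of Day1, at 0.26, 0.278, 0.401 and 0.412. At Day3 they had 1.65, 3.44, 3.64 and 4.74, with sample a the lowest, and at Day28 10.6, 10.4, 8.9 and 9.54. Every sample from Day3 on lay above every Day0 sample. The mean was 6.98-fold that of Day0 at Day3, 13.0-fold at Day14 and 20.4-fold at Day28. Log2 differences were 1.51 ± 0.13 at Day3 (adjusted p = 7.88e-11) and 2.87 ± 0.13 at Day28 (adjusted p = 1.11e-16). Day28 was above Day3 by 1.37 ± 0.13 (adjusted p = 1.37e-09), a difference that was also called between Day28 and Day7, at 0.82. Schwann cell markers moved over the same days, Ngfr from 0.407 FPKM at Day0 to 12 at Day3, and their part in the Ncam1 result was not tested.

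Between successive days, calls were made in the first 3 steps. From Day0 to Day1 they were those of Musk, Ache and Colq given above. From Day1 to Day3, 5 were called higher (Dok7, Etv5, Lrp4, Musk and Ncam1) and 0 lower, against 6.63% and 3.93% of all genes. No member was called lower there under limma, while 6 of the 9 had an unadjusted p under 0.05 in either direction and limma-voom called 6, the sixth being Ache, lower, at -0.98. From Day3 to Day5, 0 were called higher and 1 lower (Dok7), against 3.72% and 2.05% of all genes, where 6 had an unadjusted p under 0.05 and limma-voom called 2, with Ache higher (0.61). In the steps from Day5 to Day7, Day7 to Day14, Day14 to Day21 and Day21 to Day28, limma called 0 of the 9. The shares of all genes called in either direction were 0.657%, 0.634%, 0.453% and 0.199%. In those 4 steps 2, 3, 3 and 3 of the 9 had an unadjusted p under 0.05, and limma-voom called 0, 0, 1 and 0. The shares of all genes with such a p or with a limma-voom call are not given. These 2 kinds of count thus have no background in any step.

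Ratios taken within each sample do not depend on the scaling between samples. FPKM of Musk was 5.81 ± 1.26 (SD, n = 4) times that of Lrp4 at Day0 and 26.7 ± 3.43 times at Day1, and the ranges of 4.36 to 7.41 and 24.2 to 31.6 did not overlap. At Day3 it was 23.4 ± 9, from 18.7 to 36.9, which overlapped Day1. It was 13.3 ± 0.994 times at Day28. Against Dok7, Musk was at 2.73 ± 0.542 times at Day0, 5.94 ± 1.38 times at Day3 and 9.55 ± 1.67 times at Day28. The ratio of Agrn to Lrp4 was 1.94 ± 0.194 at Day0, 3.57 ± 0.369 at Day1 and 1.12 ± 0.236 at Day3, so the ligand gene and receptor gene changed unequally. Ache stood at 2.81 ± 0.816 times Colq at Day0, 3.2 ± 0.909 times at Day1 and 1.3 ± 0.51 times at Day3. The 4 Day3 ratios of that pair, from 0.87 to 1.99, lay below the 4 Day0 ratios, from 2.17 to 4.

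**Figure D3:**
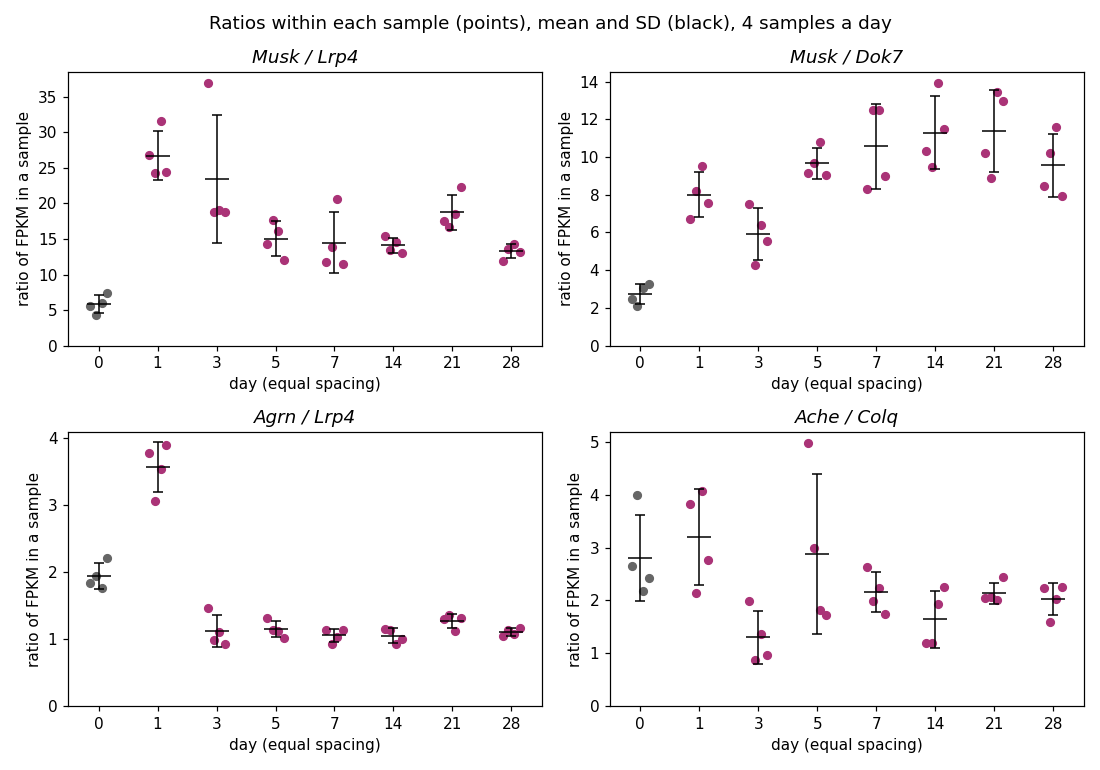
Ratio of the FPKM of 2 genes within each sample (vertical axes, starting at 0) by day (horizontal axes, days equally spaced), with 1 point per sample and black marks for the mean and SD of 4 samples. The mean Musk to Lrp4 ratio is 26.7 at Day1 and 23.4 at Day3, with overlapping samples, and the mean Agrn to Lrp4 ratio is highest at Day1, at 3.57.

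Over the 32 samples, the gene whose log2(FPKM + 1) was most like that of Musk was Gadd45a, with a Pearson r of 0.979 among 11935 genes compared. Samd8 and Nbr1 followed. For Dok7 they were Xirp1 (0.928), Eny2 and Ankrd2, and for Lrp4 Hs2st1 (0.963), Neurl1a and Maea. Ache was most like Sec14l5 (0.961), AC122818.4 and Sema6c, and Colq most like Gys1 (0.852), Ank1 and Dusp10. Ncam1 was most like the receptor subunit genes Chrng (0.987) and Chrnd (0.983), then Serpinb1a. For Agrn they were Parp10 (0.884), Ppox and Parp9, for Etv5 Lmo7 (0.898), Sbk1 and Arhgap24, and for Rapsn Gm22121 (0.542), Ak4 and Nrbf2. Between the 9 genes themselves, r was 0.886 for Ncam1 and Lrp4, 0.831 for Ache and Colq and -0.858 for Ache and Musk. The samples share their time points, so these values describe common time courses.

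Other genes of the pathway were counted list by list. Of the 5 acetylcholine receptor subunits, 4 were called higher and 1 lower at Day3, and 4 higher and 0 lower at Day28. Chrnd, a subunit of the receptor, had 0.895 ± 0.0853 FPKM at Day0 and 125 ± 9.05 at Day28. Chrne, the subunit of the adult receptor, was at 7.61 ± 1.27 at Day0, 1.24 ± 0.515 at Day3, a called fall, and 9.04 ± 1.15 at Day28, a difference of 0.23 that was not called and was -0.12 after median-ratio scaling. Of the 4 myogenic factors that bind E-boxes, 3 were called higher at Day3 (75.0%) and 4 at Day28 (100%), or 3 at Day28 after median-ratio scaling. Myog, a factor of muscle differentiation, had 1.97 ± 0.464 FPKM at Day0 and 215 ± 34.5 at Day3. The median log2 difference at Day3 was 2.73 for the subunits and 3.19 for the factors, beside 0.06 over all genes tested.

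Among 21 effectors of MuSK signalling, 0 were called at Day1, 5 higher at Day3 and 7 higher at Day28, with 0 lower. These are 23.8% and 33.3% of the list, beside 13.2% and 14.2% of all genes at Day3 and Day28. Cttn, which organises the actin beneath the receptors, was higher at Day3 by 1.44, and Cdc42, a small GTPase, at Day28 by 1.02. After median-ratio scaling 4 were higher and 2 lower at Day28, the lower ones being Rac1 and Pdzrn3. Of all 22041 genes tested under that scaling, 1450 were higher and 1789 lower. Of 7 neuregulin receptors and ETS factors tested, Erbb3 was called higher at Day3 (0.95) and Erbb3 (1.08) and Erbb2 (0.59) at Day28. These were 14.3% and 28.6% of the list, beside 13.2% and 14.2% of all genes. The Erbb2 call was lost after median-ratio scaling (0.36). Of 6 feedback genes of ERK signalling, 0 were called at Day3 and Spred1 at Day28 (0.87), a call lost after median-ratio scaling. That is 16.7% of the list at Day28, beside 14.2% of all genes.

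In the synaptic basal lamina list, 2 of 13 genes were called higher at Day3, Bgn (1.23), a proteoglycan that binds MuSK, and Lama5 (0.96), a laminin chain, or 15.4% beside 13.2% of all genes. After median-ratio scaling 2 were higher and 3 lower (Lama2, Lamb2 and Hspg2) at Day3. Of all 22041 genes tested under that scaling, 1987 were higher and 2021 lower at Day3. Of 10 genes of the dystroglycan scaffold, 3 were higher at Day3, led by Dtna at 1.28, and 3 at Day28, led by Sntb1 at 1.05, with 1 lower at Day28. That is 30.0% of the list, beside 13.2% and 14.2% of all genes called higher. After median-ratio scaling 2 were higher at Day3, and 1 higher and 1 lower at Day28, where 1450 of all 22041 genes were higher and 1789 lower. Prima1, the membrane anchor of acetylcholinesterase, was called lower from Day3 to Day28, with 1.1 ± 0.379 FPKM at Day0 and 0.247 ± 0.0995 at Day28. Bche, the related butyrylcholinesterase, was called lower at Day1 (-0.60) and at no later day. In the adhesion list 1 of 5 genes tested was called at Day3, Cdh15 (0.87), and 1 at Day28, St8sia2 (1.55), an enzyme that adds polysialic acid to NCAM. Its level went from 0.0818 ± 0.0213 FPKM at Day0 to 2.17 ± 0.111 at Day28.

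**Figure D4:**
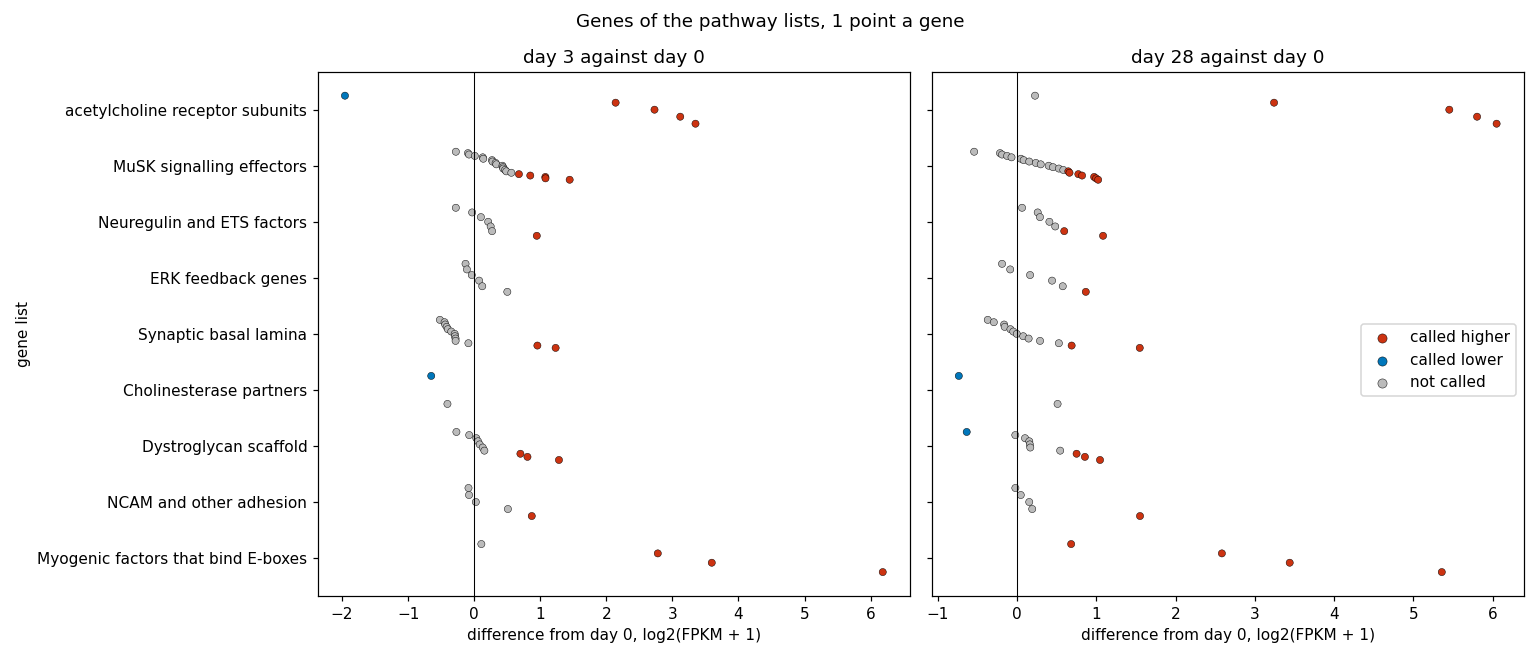
Difference from Day0 in log2(FPKM + 1) (horizontal axes) of each gene in 9 lists of the pathway (rows) at Day3 (left) and Day28 (right), with 1 point per gene, red for called higher, blue for called lower and grey for not called. The receptor subunits and myogenic factors reach differences above 5 at Day28, whereas most genes of the other lists are grey.

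Markers of other cells moved over the same days. The summed FPKM of 6 macrophage markers was 58.7 on average at Day0, 274 at Day3 and 152 at Day28. That of 7 fibre markers was 43713 at Day0, 26677 at Day3 and 24943 at Day28. The sum of 5 satellite cell markers was 6.36 at Day0, 4.99 at Day3 and 9.46 at Day28. At Day28 1 of the 5 was called higher, Myf5, which is also among the myogenic factors above, and 0 were after median-ratio scaling. The part of these shifts in the changes of the 9 genes was not tested.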

How the data were processed

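RNA-seq of 32 GAS samples was analysed from 1 table of FPKM values that the authors deposited, with 33397 genes. The submitters' processing notes name CASAVA, HISAT2 2.1.0, DESeq2 and GRCm38 without their roles; the counter, annotation and strand setting are not given in the sources used here. Columns name the time point only, so they served as 4 replicates of a group, and 0 columns were left out. P-values measure the spread between these samples. FPKM corrects for length and total, so a change in a few abundant genes shifts all others.

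The values matched whole fragments over merged GENCODE M21 exon lengths for 33356 genes. Of values worth under 200 fragments, 99.2 to 99.3% came out whole within 0.01 fragments. Gene models overlap for Rapsn, Colq, Ache and Ncam1, and antisense fragments cannot be told apart there.

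A gene entered the test where 4 or more samples reached 0.1 FPKM, which left 22071 genes with all 9 members among them. The test was limma (version 3.58.1, R 4.3.3), by lmFit and then eBayes with the trend option, on log2(FPKM + 1), with a pseudocount of 1 and Benjamini-Hochberg adjustment over all genes. The step was tested on simulated data. Figures and tables used Python 3.11.15, pandas 2.3.3, numpy 2.4.6, scipy 1.17.1 and matplotlib 3.10.9. Alternatives were a pseudocount of 0.1, no filter, a filter at an FPKM of 1, median-ratio scaling, TPM, limma-voom on recovered fragments, fits of the 2 time points alone, leaving out each sample, and scaling without mitochondrial genes. The members and gene lists were chosen with earlier results of these data known. Named genes were the 9 members, up to 4 genes per list with the largest and smallest change at the day named, and the 3 genes most like each member. The further list genes and markers named were picked after their values were seen. Values of a few list and marker genes are not reported here.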

Additional observations from a re-analysis of the deposited data

Results flagged for a closer look

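Of 72 groups of 4 samples (9 genes at 8 days), 4 held a sample far from the other 3, and chance alone gives about 1 in 20. Lrp4 at Day5 was high in sample d, at 4.495 FPKM. Etv5 at Day7 was high in sample d, at 4.707 FPKM. Ache at Day5 was low in sample d, at 1.114 FPKM, and Ncam1 at Day7 was low in sample d, at 4.859 FPKM.

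The change of Dok7 against Day0 was smaller at Day28 than at Day3 by a limma contrast of -0.8304 on the log2 scale (adjusted p = 4.30e-07). That of Ncam1 was larger at Day28 than at Day3 by 1.366 (adjusted p = 1.37e-09).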

How the results depend on the processing

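Of the 63 differences from Day0 (9 genes at 7 days), 59 kept their side of the threshold after median-ratio scaling, 54 after TPM, 58 with a pseudocount of 0.1, 58 with limma-voom and 61 with scaling to the total without mitochondrial genes, an alternative chosen after seeing the data. All 63 did so under either other filter and in fits of the 2 time points alone. No called difference reversed. Rescaling to TPM called 5 members higher at each of Day14, Day21 and Day28, in place of 3. Of all 25285 genes tested under TPM, 6746, 4766 and 6280 were called higher at those days. With the values as deposited they were 3230, 2599 and 3143 of 22071. The number called lower at Day21 ran from 1 to 2 when each sample was left out. The lists of the pathway were less stable. Their genes called higher were 7 with TPM in place of 4 at Day1, 29 in place of 19 at Day5 and 35 in place of 23 at Day14, and 15 after median-ratio scaling in place of 24 at Day28. Their genes called lower at Day1 were 2, but 5 with a pseudocount of 0.1 or limma-voom and 1 to 2 with each sample left out. At Day3 they were 2, but 7 with that pseudocount or limma-voom, 5 after median-ratio scaling and 1 to 2 with each sample left out. At Day7, 1 became 2 with the pseudocount or median-ratio scaling and 4 with limma-voom. At Day14, 1 became 2 with the pseudocount, median-ratio scaling, TPM or limma-voom. At Day21, 1 became 3 with the pseudocount, median-ratio scaling or limma-voom, 2 with TPM or without mitochondrial genes, and 1 to 2 with each sample left out. At Day28, 2 became 4 with the pseudocount, median-ratio scaling or limma-voom and 1 with TPM. The causes were not tested. No paired analysis was possible because the columns carry no replicate number that matches the labels. The lowest counts in a sample were 17 fragments for Colq, 24 for Rapsn, 32 for Ncam1 and 58 for Ache.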
